A study of Arabidopsis thaliana with 72 samples.

Results

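The genes of galactolipid and sulfolipid synthesis are 8 of the 33602 genes in the expression table, taken by locus as a fixed list: the monogalactosyldiacylglycerol synthases MGD1, MGD2 and MGD3, the digalactosyldiacylglycerol synthases DGD1 and DGD2, the UDP-glucose pyrophosphorylase UGP3, the UDP-sulfoquinovose synthase SQD1 and the sulfoquinovosyltransferase SQD2. The list was chosen with earlier results of these data known, so counts of its genes beside shares of all genes describe them and support no direction. All 8 passed the filter on low values and were among the 21206 genes tested. They were read in root RNA-seq of Arabidopsis thaliana seedlings aged 8 days, in 72 libraries of 24 groups with 3 libraries each. The genotypes were 5 mutants of 1 gene (phl4, phl3, phl2, phl1 and phr1), 4 of 2 genes (phr1phl4, phr1phl3, phr1phl2 and phr1phl1), the triple phr1phl1phl2, the quadruple phr1phl1phl2phl3, and the wild type Col-0 (Col), each grown on phosphate-deficient (-Pi) and phosphate-sufficient (+Pi) medium. PHR1 and the PHL proteins are related transcription factors of the phosphate starvation response, and the design asks how much of that response rests on each of them. All plants shared a medium with sucrose and MES buffer, set with agar or agarose, and the labels name the mutated genes but not the alleles. The series calls its replicates biological without saying whether they came from separate plates, so p-values measure the spread between these libraries, part of which may be technical.

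Chloroplast membranes are made largely of galactolipids. MGD enzymes add galactose to diacylglycerol, and DGD enzymes add another galactose to the product, whereas UGP3 makes the UDP-glucose that SQD1 turns into the sulfoquinovose donor and SQD2 joins that head group to diacylglycerol. MGD1 and DGD1 supply the bulk of chloroplast galactolipid, while MGD2, MGD3 and DGD2 are known for a route used when phosphate is scarce, in which digalactolipid and sulfolipid stand in for phospholipids that are broken down for their phosphate.

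PHR1 binds the P1BS element, so the sequences around the 8 gene starts were searched for its letters, GNATATNC, where N is any base. The reverse complement of this motif has the same form, so a match on one strand is a match on both. In the 250 bases before the gene start 1 of 8 genes held a match, against 5.44% of 26711 genes with an annotated start, and in the 1000 bases before it 2 of 8 did, against 20.3%. In the first 500 bases of the gene all 8 held a match, against 7.53% of 26712 genes. In the joined window, from 1000 bases before to 500 bases after the start, the 8 genes stood beside 26.4% of all genes. The wider windows were chosen after the narrower ones had been seen. Of 20151 tested genes with such a window, 6.87% held a match in the first 500 bases, and of the 1251 of them that were called higher in Col under -Pi, 11.99% did. The first 500 bases held the match in an exon before the coding sequence in 7 genes and inside the coding sequence in MGD3, whose coding sequence begins at base 227. A match is a description of letters and not a measured binding site. Each line below gives 30 bases around 1 match, read from RefSeq's TAIR10.1 genome 5′ to 3′ in the direction of the gene, with the motif in capitals.
MGD1, chr4:15374002-15374031, plus strand, match begins at base 26 of the gene: aattgcccacaGAATATTCggataagtatt
MGD2, chr5:6895951-6895980, plus strand, match begins 501 bases before the gene start: aatgagcaatgGGATATACaagagcccggt
MGD2, chr5:6896438-6896467, plus strand, match begins 14 bases before the gene start: tatatactactGAATATTCttttgttaata
MGD2, chr5:6896489-6896518, plus strand, match begins at base 38 of the gene: tcgaggaccttGAATATTCgaatcttttca
MGD3, chr2:4743478-4743507, plus strand, match begins at base 328 of the gene: gtagaagatgaGTATATCCatcgtcagaga
DGD1, chr3:3684813-3684842, minus strand, match begins at base 41 of the gene: cttcgattccaGCATATTCctaagttaaat
DGD2, chr4:240367-240396, minus strand, match begins at base 195 of the gene: agatcttccgaGAATATTCtctccttctca
SQD1, chr4:15935376-15935405, plus strand, match begins at base 15 of the gene: ggaataagtaaGAATATGCtttgggcatat
SQD2, chr5:90439-90468, minus strand, match begins 340 bases before the gene start: ttatgtgaagcGAATATTCattggaataga
SQD2, chr5:90055-90084, minus strand, match begins at base 45 of the gene: gataaattttaGCATATGCtaaaacgagta
SQD2, chr5:90003-90032, minus strand, match begins at base 97 of the gene: cctcacaaagaGGATATACctctctttcgt
UGP3, chr3:20797554-20797583, minus strand, match begins at base 99 of the gene: agtgattctggGCATATGCttggagtatct
The stretch just before MGD2 is shown because it was the only one of the 8 with a match so close to the start.
MGD2, chr5:6896213-6896462, plus strand, the 250 bases before the gene start: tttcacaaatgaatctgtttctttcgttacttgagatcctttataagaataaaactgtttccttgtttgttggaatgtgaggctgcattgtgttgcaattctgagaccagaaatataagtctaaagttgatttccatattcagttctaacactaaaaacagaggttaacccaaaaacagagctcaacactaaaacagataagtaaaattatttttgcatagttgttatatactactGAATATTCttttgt

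**Figure D1:**
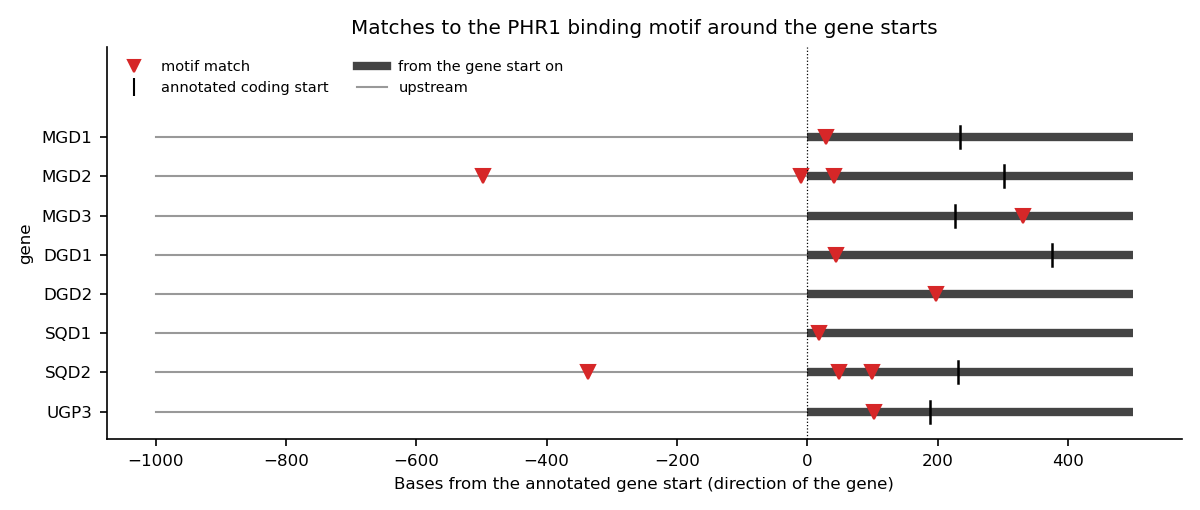
Positions of matches to the PHR1 binding motif (red triangles) along each of the 8 genes, in bases from the annotated gene start in the direction of the gene, with the coding start as a black bar where it lies within 500 bases. All 8 genes have a match to the right of the gene start, and MGD2 and SQD2 also have matches to its left.

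Several properties of the libraries bear on the values that follow. Estimated depth ran from 10.96 to 39.4 M reads (median 22.4). PHR1 read 1.62 to 5.86 RPKM (a read number scaled by gene length and library size) in the 42 libraries carrying phr1 and 15.8 to 27.7 in the other 30, and PHL1 (1.60 to 4.66 against 5.70 to 10.4) and PHL2 (0.675 to 4.38 against 12.2 to 37.2) likewise separated by label. PHL4 (2.73 to 5.02 against 3.21 to 18.7) overlapped. PHL3 read 1.93 to 16.4 in the 18 libraries with phl3 in their label and 3.99 to 15.6 in the other 54, so its transcript does not show a loss, and "phl3", "phr1phl3" and "quadruple" stand here for libraries labelled so. The names PHL2, PHL3 and PHL4 were given to their loci (AT3G24120, AT4G13640 and AT2G20400) from general knowledge of the family. All 5 root markers were found in all 72 libraries, with the phosphate exporter gene PHO1 at 86.6 to 347 RPKM. Under -Pi the root hair genes EXPA7 (-0.59, adjusted p = 4.71e-05 with limma) and COBL9 (-0.95, adjusted p = 3.62e-07 with limma) were lower in phr1phl1 than in Col without the size for a call used here, an absolute log2 fold change of 1. In phl4, EXPA7 was at 0.33 (adjusted p = 0.0252 with limma) and the endodermal gene CASP1 at 0.59 (adjusted p = 0.0322 with limma) against Col. The part of these markers in the results was not tested. Of 3 green tissue markers none was at 0 in any library, and RBCS1A ran from 0.063 to 305 RPKM. The libraries also fell into 3 classes of 33, 22 and 17 when grouped by the slopes of their values on gene length and base composition. All Col, phr1 and phr1phl1 libraries under -Pi were of class 1, while all phl2, phl3 and phr1phl3 libraries under -Pi were of class 2. Genotype and class thus cannot be told apart where phl2, phl3 or phr1phl3 is set against Col or phr1 under -Pi. All phl2, phl3 and quadruple libraries under +Pi were of class 3.

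In Col roots, phosphate deficiency raised 7 of the 8 genes, with a range from 2.11-fold for MGD1 to 125-fold for MGD3. A gene counted as called when limma gave an adjusted p under 0.05 together with a log2 fold change of 1 or more in size, and 6.24% of all tested genes were called higher in this comparison. The log2 fold changes are on log2(RPKM + 1), which understates the change of genes with low values, and are given ± SE. DGD1, at 0.93 ± 0.15, fell short of the size for a call although its adjusted p was 8.18e-07. The median of the 8 was 2.89, beside 0.02 for all tested genes. The 3 green tissue markers moved with the medium, with a summed level of 1.94 to 2.39 RPKM in Col -Pi libraries and 90.9 to 218 in Col +Pi libraries, and their part in these results was not tested. Root markers summed to 321 to 333 RPKM in Col -Pi libraries and 432 to 518 in Col +Pi libraries. With limma, PHO1 was at -0.91 (adjusted p = 8.89e-06), CASP1 at -0.84 (adjusted p = 0.00173), EXPA7 at 0.41 (adjusted p = 0.00403) and COBL9 at 0.17 (adjusted p = 0.357). The part of the root markers was not tested either. In libraries of whole roots, fewer cells of a type and less RNA per cell cannot be told apart.

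The steepest rise was that of MGD3 (AT2G11810), an outer envelope MGD synthase on chr2:4743162-4746813 (plus strand, 7 exons). MGD3 read 131, 124 and 121 RPKM in the Col -Pi libraries and 1.00, 1.29 and 0.718 in the Col +Pi libraries. The groups lay far apart, with the +Pi level near the filter of 1 RPKM (log2 5.99 ± 0.12, adjusted p = 2.67e-42 with limma). MGD2 (AT5G20410), the other synthase of the starvation route, lies on chr5:6896463-6898783 (plus strand, 6 exons). MGD2 read 41.7, 41.7 and 43.3 RPKM in Col -Pi libraries and 2.09, 2.24 and 2.21 in Col +Pi libraries, a 19.4-fold difference without overlap (log2 3.76 ± 0.12, adjusted p = 1.37e-32 with limma). MGD1 (AT4G31780, chr4:15373988-15377172, plus strand, 7 exons), which makes most chloroplast galactolipid, read 20.3, 23.5 and 22.0 RPKM in Col -Pi libraries and 9.05, 11.3 and 10.9 in Col +Pi libraries. Its log2 fold change of 1.01 ± 0.15 was just past the size for a call, and was 0.95 with library class as a term, 0.92 in class 1 libraries alone or without Col +Pi replicate 1, 0.96 without Col -Pi replicate 2 and 0.99 after rescaling, none of which is a call. MGD1 overlaps AT4G31790 on the same strand, so reads could be shared between them.

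Of the digalactolipid synthases, DGD2 rose and DGD1 showed the smaller difference. DGD2 (AT4G00550, chr4:237901-240579, minus strand, 5 exons), the synthase of the starvation route, read 46.1, 49.4 and 49.6 RPKM in Col -Pi libraries and 11.5, 12.2 and 13.9 in Col +Pi libraries (log2 1.87 ± 0.14, adjusted p = 1.83e-16 with limma). DGD1 (AT3G11670, chr3:3680866-3684871, minus strand, 7 exons) read 20.7, 20.4 and 23.8 RPKM in Col -Pi libraries and 8.44, 11.5 and 13.0 in Col +Pi libraries. The groups of DGD1 did not overlap either, and without Col +Pi replicate 3 its log2 fold change was 1.05 and it was called.

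All 3 genes of the sulfolipid branch rose in Col. SQD2 (AT5G01220, chr5:86543-90117, minus strand, 12 exons) had the highest level of the set per length, with 504, 497 and 478 RPKM in Col -Pi libraries and 23.6, 28.4 and 32.5 in Col +Pi libraries (log2 4.09 ± 0.12, adjusted p = 7.91e-34 with limma). SQD1 (AT4G33030, chr4:15935373-15937833, plus strand, 3 exons) read 116, 113 and 122 RPKM in Col -Pi libraries and 18.2, 17.5 and 17.7 in Col +Pi libraries (log2 2.65 ± 0.09, adjusted p = 1.06e-30 with limma). UGP3 (AT3G56040, chr3:20792477-20797670, minus strand, 17 exons), which feeds this branch in the plastid, read 67.8, 65.6 and 68.5 RPKM in Col -Pi libraries and 5.36, 7.57 and 7.54 in Col +Pi libraries (log2 3.14 ± 0.15, adjusted p = 4.08e-25 with limma). None of the 3 pairs of groups overlapped, as for 27.6% of all tested genes with -Pi higher. UGP3 overlaps AT3G56030 and AT3G08635 on the other strand, and the labels do not say whether the libraries keep strand, so its values are uncertain. None of the 8 genes shared a run of 50 bases with another place in the genome.

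**Figure D2:**
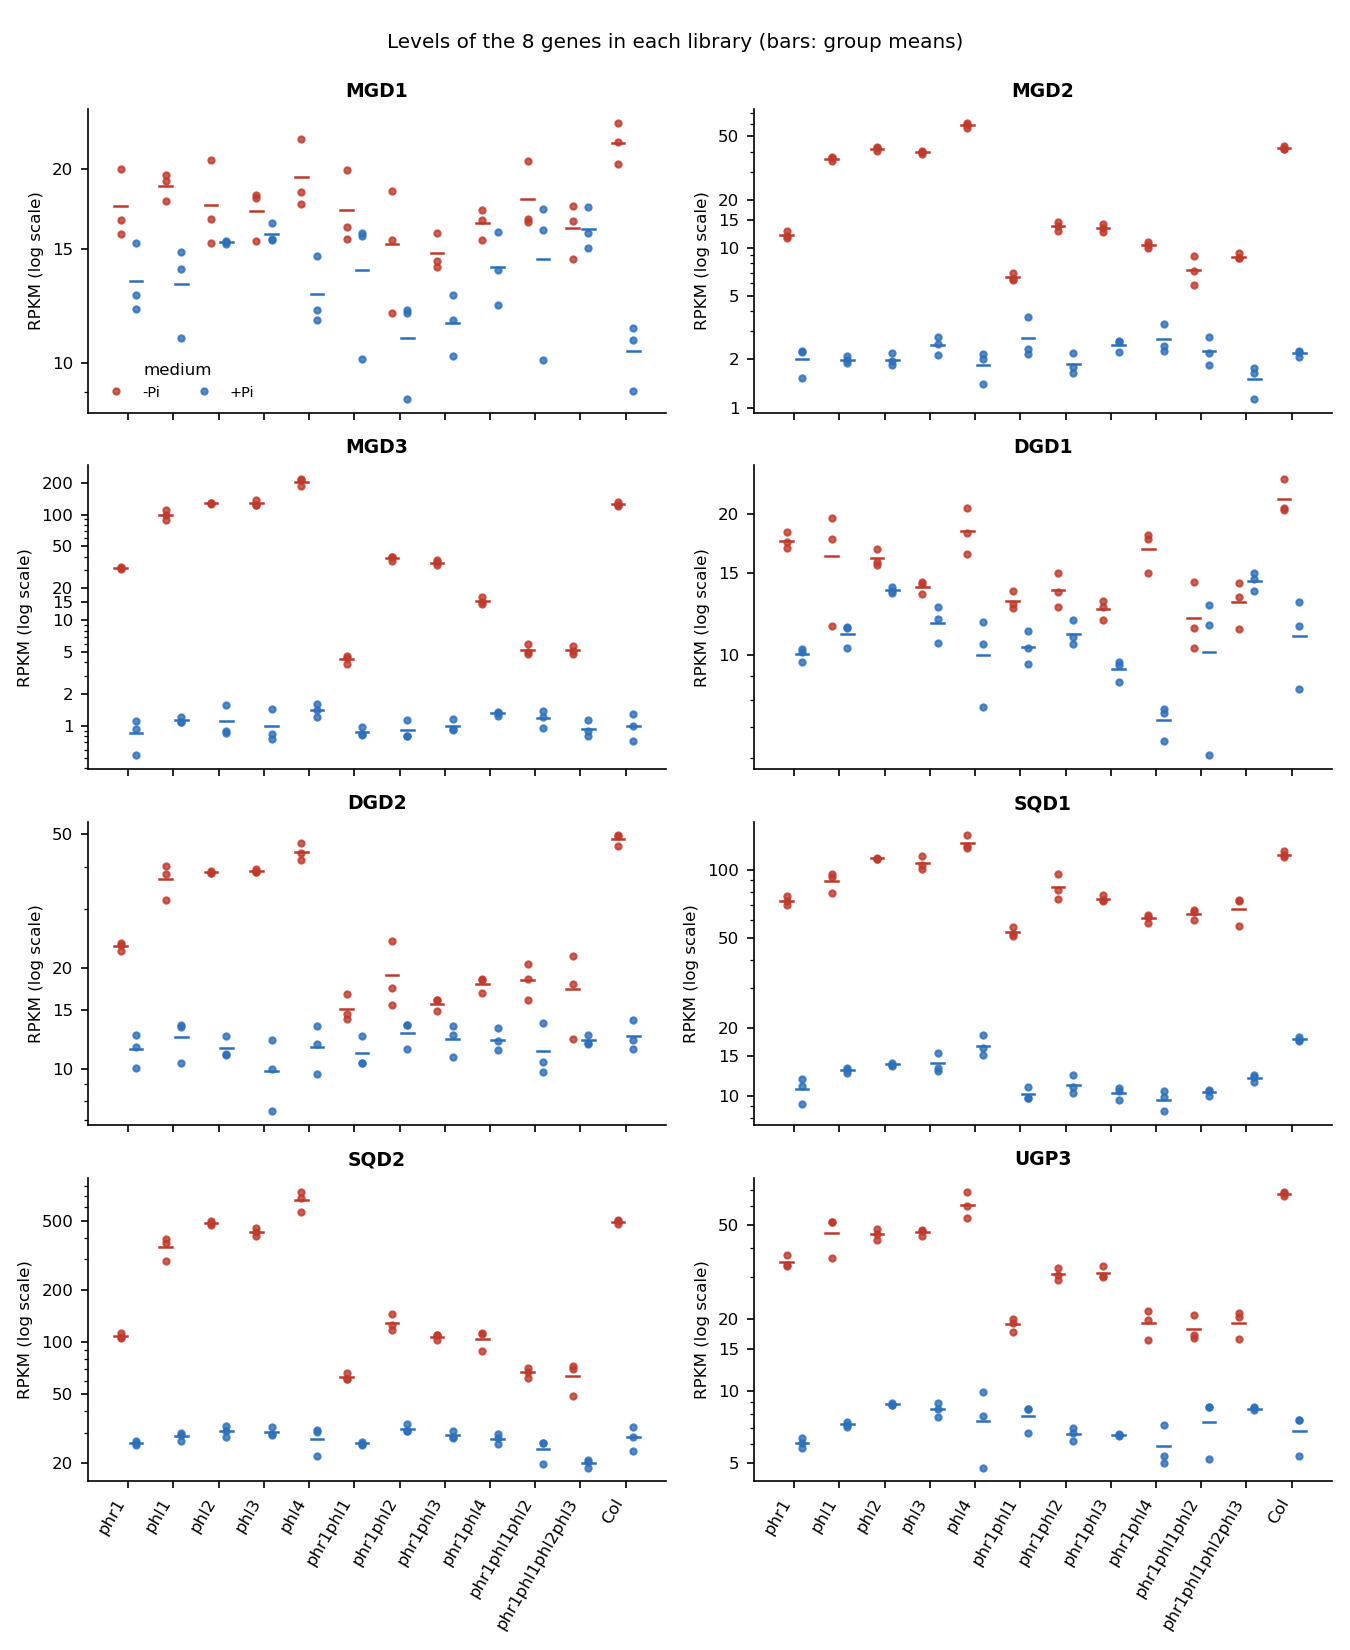
Level of each of the 8 genes in every library (points, RPKM on a log axis) with group means (bars), -Pi in red and +Pi in blue, for the 11 mutants and Col. MGD2, MGD3, DGD2 and SQD2 fall into separate high and low sets under -Pi, with the 7 genotypes carrying phr1 low, while the +Pi levels lie close together.

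Under -Pi, genotypes carrying phr1 and genotypes with an intact PHR1 formed separate ranges for 4 of the 8 genes, with phr1 lower, beside 0.986% of all tested genes. MGD2 ran from 5.81 to 14.5 RPKM (median 10.5) in the 21 -Pi libraries carrying phr1 and from 34.8 to 60.5 (median 41.7) in the 15 others. MGD3 ran from 3.84 to 40.0 RPKM (median 14.99) in the libraries carrying phr1 and from 89.7 to 216 (median 125) in the others. SQD2 ran from 49.1 to 146 RPKM (median 103) in the libraries carrying phr1 and from 293 to 738 (median 478) in the others. DGD2 also separated, at 12.3 to 24.04 RPKM with phr1 and 31.8 to 49.6 without. UGP3 (16.4 to 37.3 against 36.2 to 68.7), SQD1 (51.0 to 96.1 against 78.8 to 142), MGD1 (11.96 to 20.6 against 15.3 to 23.5) and DGD1 (10.3 to 18.3 against 11.5 to 23.8) overlapped, all 4 with the lower median in the libraries carrying phr1.

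Loss of PHR1 alone lowered 4 of the 8 genes against Col under -Pi, where 0.783% of all tested genes were called lower. SQD2 read 107, 106 and 112 RPKM in phr1 -Pi libraries, against 504, 497 and 478 in Col -Pi libraries, which left 22.0% of the Col mean (log2 -2.18 ± 0.12, adjusted p = 3.05e-21 with limma). MGD3 read 32.2, 31.1 and 30.8 RPKM in phr1 and thus 25.0% of the Col mean (log2 -1.97 ± 0.12, adjusted p = 1.97e-20 with limma). MGD2 stood at 12.04 ± 0.598 RPKM in phr1 and 42.2 ± 0.902 in Col (SD, n = 3 each, log2 -1.73 ± 0.12), and DGD2 at 23.2 ± 0.664 in phr1 and 48.4 ± 1.97 in Col (log2 -1.03 ± 0.14). The groups of all 8 genes lay apart with phr1 lower, as they did for 16.6% of all tested genes. UGP3 (-0.93 ± 0.15, adjusted p = 2.1e-06 with limma) and SQD1 (-0.67 ± 0.09, adjusted p = 9.26e-08 with limma) had small adjusted p-values without the size for a call, while MGD1 (-0.32) and DGD1 (-0.28) had adjusted p-values of 0.223 and 0.296 with limma. The 3 green tissue markers were called higher in phr1 than in Col, with a summed level of 10.7 to 13.3 RPKM against 1.94 to 2.39, and their part was not tested. Of the 21206 tested genes, 492 were called higher in phr1 there.

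The phr1phl1 double mutant had the lowest -Pi mean of 5 of the 8 genes (MGD2, MGD3, DGD2, SQD1 and SQD2) among all 12 genotypes, and 6 of 8 were called lower than in Col, beside 4.51% of all tested genes. MGD3 read 3.84, 4.41 and 4.59 RPKM in phr1phl1 -Pi libraries, which is 3.41% of the Col mean (log2 -4.59 ± 0.12, adjusted p = 4.39e-37 with limma). SQD2 read 66.4, 60.9 and 61.1 RPKM in phr1phl1 (12.7% of Col, log2 -2.95 ± 0.12), and MGD2 6.96, 6.34 and 6.34 (15.5% of Col, log2 -2.52 ± 0.12). UGP3 (-1.77 ± 0.15), DGD2 (-1.62 ± 0.14) and SQD1 (-1.13 ± 0.09) were lower too, and the groups of these 6 lay apart, as for 25.7% of all tested genes with phr1phl1 lower. The green tissue markers summed to 102 to 146 RPKM in phr1phl1 -Pi libraries, and 3 of 3 were called higher than in Col, without a test of their part. Of the 21206 tested genes, 1484 were called higher in phr1phl1 there.

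The other genotypes carrying phr1 had the same 5 genes called lower than Col under -Pi, namely MGD2, MGD3, DGD2, SQD2 and UGP3. These 5 of 8 stood beside 3.92% of all genes called lower in phr1phl2, 5.17% in phr1phl3, 6.05% in phr1phl4, 4.61% in the triple mutant and 5.65% in the quadruple mutant. All phr1phl3 libraries here were of class 2 and all Col libraries of class 1, so genotype and class cannot be told apart for phr1phl3. For MGD3 the log2 fold changes against Col were -1.67 in phr1phl2, -1.81 in phr1phl3, -2.97 in phr1phl4, -4.34 in the triple and -4.35 in the quadruple mutant. For SQD2 they were -1.92, -2.19, -2.24, -2.86 and -2.95 in the same order. With library class as a term UGP3 was no longer called in phr1phl2 (-0.86) and phr1phl3 (-0.72), and in class 1 libraries alone DGD2 was not called in phr1phl2 (-0.98), which there rests on 1 phr1phl2 library assumed to vary like the other groups. After rescaling, SQD1 was called lower in phr1phl4 (-1.02) and in the triple mutant (-1.01) as well. The green tissue markers summed to 31.3 to 81.4 RPKM in phr1phl2, 84.9 to 94.8 in phr1phl3, 1011 to 1190 in phr1phl4, 66.4 to 314 in the triple and 243 to 386 in the quadruple mutant under -Pi, against 1.94 to 2.39 in Col, and their part was not tested.

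The single phl mutants under -Pi gave no call among the 8 genes against Col with limma. The share of all tested genes called in either direction was 0.25% in phl1, 15.1% in phl2, 13.8% in phl3 and 8.66% in phl4. All phl2 and phl3 libraries here were of class 2 and all Col libraries of class 1, so genotype and class cannot be told apart there. At an unadjusted p under 0.05 the counts among the 8 genes were 6 in phl1, 4 in phl2, 4 in phl3 and 3 in phl4. At an adjusted p under 0.05 with limma the counts were 3 in phl1, 2 in phl2, 2 in phl3 and 3 in phl4. For these looser rules the share of all tested genes was not worked out, so the shares of calls are no measure for them. In phl1 all 8 values were below 0, from -0.21 for MGD1 to -0.55 for UGP3. In phl4, the starvation genes MGD2, MGD3 and SQD2 stood above Col by less than the size for a call. MGD3 read 213, 187 and 216 RPKM in phl4 -Pi libraries, against 131, 124 and 121 in Col -Pi libraries (163% of the Col mean, log2 0.70 ± 0.12, adjusted p = 3.82e-06 with limma). MGD2 read 60.5, 56.2 and 58.7 RPKM in phl4 (log2 0.46 ± 0.12, adjusted p = 0.0024 with limma), and SQD2 681, 738 and 560 (log2 0.41 ± 0.12, adjusted p = 0.00725 with limma). For these 3 genes and SQD1 (0.17, adjusted p = 0.138 with limma) every phl4 library exceeded every Col library, which also held for 24.6% of all tested genes. The other 4 genes were at -0.22 to -0.12, and the median of the 8 was 0.02. The phl4 -Pi libraries had green tissue markers summing to 52.3 to 86.8 RPKM, 3 of 3 called higher than in Col, and held 1 library of class 1 and 2 of class 2. Of the 21206 tested genes, 1138 were called higher in phl4 there.

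**Figure D3:**
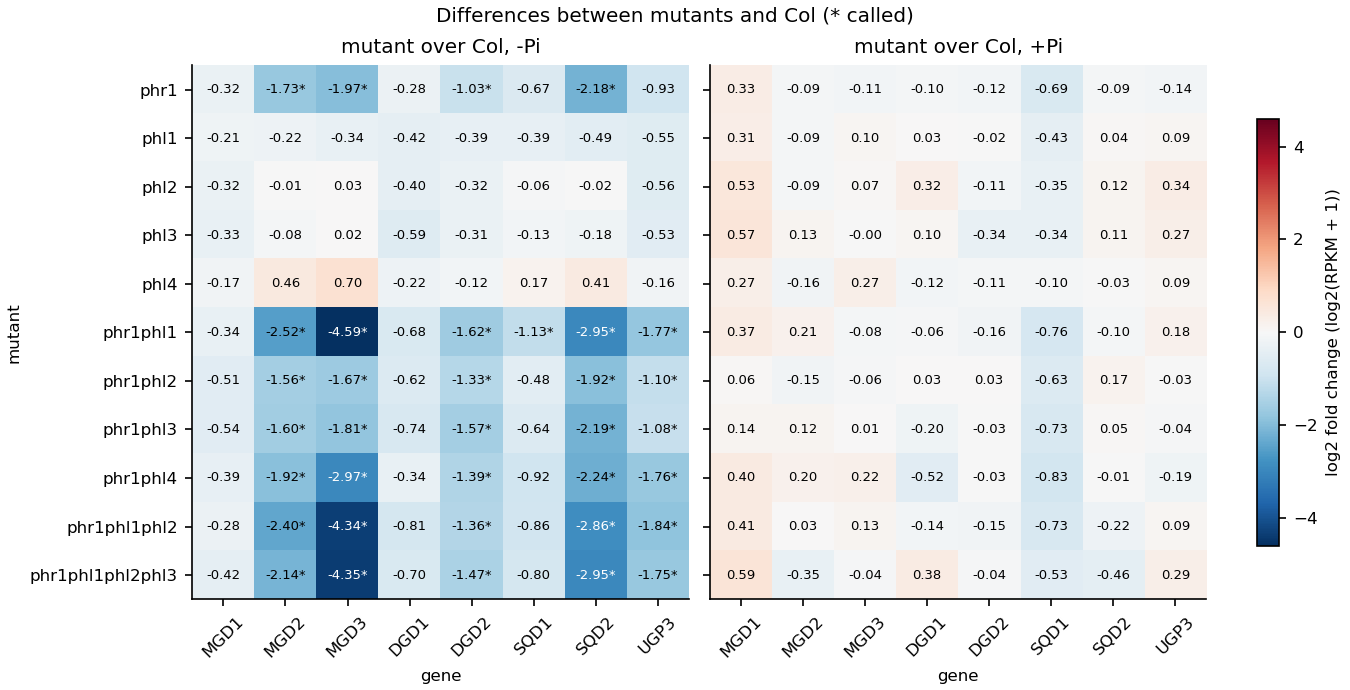
Log2 fold change (log2(RPKM + 1)) of each gene in each of the 11 mutants over Col under -Pi (left) and under +Pi (right), with an asterisk where it was called (adjusted p under 0.05 and a size of 1 or more). Calls appear in the 7 genotypes carrying phr1 under -Pi and nowhere under +Pi, where SQD1 is at -0.53 or below in those 7 genotypes.

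Under +Pi, limma called none of the 8 genes in any of the 11 mutants against Col. At an unadjusted p under 0.05 the counts were 2 in phr1, 2 in phl1, 4 in phl2, 3 in phl3, 1 in phl4, 2 in phr1phl1, 1 in phr1phl2, 1 in phr1phl3, 3 in phr1phl4, 2 in the triple and 5 in the quadruple mutant. Over all tested genes the share called in either direction was 2.45% in phr1, 4.02% in phl1, 11.3% in phl2, 10.7% in phl3, 1.65% in phl4, 8.53% in phr1phl1, 5.95% in phr1phl2, 2.51% in phr1phl3, 5.6% in phr1phl4, 5.78% in the triple and 7.59% in the quadruple mutant. These shares follow the stricter rule for a call, and the share at an unadjusted p under 0.05 was not worked out. MGD3 stayed between 0.532 and 1.60 RPKM in all +Pi libraries. MGD2 stayed between 1.13 and 3.69 RPKM, and SQD2 between 18.9 and 33.7 RPKM. For these genes the order of the +Pi group means had overlapping neighbours throughout.

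SQD1 and MGD1 were the genes whose +Pi values most often had an adjusted p under 0.05 against Col. SQD1 ran from 8.55 to 12.4 RPKM (median 10.6) in the 21 +Pi libraries carrying phr1 and from 12.6 to 18.6 (median 14.02) in the 15 others, so that the ranges did not overlap, as for 0.0141% of all tested genes with phr1 lower. Against Col, SQD1 was at -0.83 to -0.53 in the 7 genotypes carrying phr1, all 7 with an adjusted p under 0.05 by limma but short of the size for a call. It was at -0.43 to -0.10 in the 4 single phl mutants, 3 of 4 with an adjusted p under 0.05. In phr1, SQD1 read 9.25, 11.9 and 11.1 RPKM under +Pi, against 18.2, 17.5 and 17.7 in Col +Pi libraries (log2 -0.69 ± 0.09, adjusted p = 4.17e-07 with limma). MGD1 stood above Col in all 11 mutants, at 0.06 to 0.59 in the 7 genotypes carrying phr1 (4 of 7 with an adjusted p under 0.05 by limma) and at 0.27 to 0.57 in the 4 single phl mutants (2 of 4). The values of SQD1 and MGD1 against Col all share the same 3 Col +Pi libraries. MGD1 read 9.05, 11.3 and 10.9 RPKM in them, with the first of class 2 and the others of class 1. The highest MGD1 means under +Pi were those of the quadruple mutant, phl3 and phl2, whose +Pi libraries were all of class 3. Col had no class 3 library under +Pi, so genotype and class cannot be told apart in these comparisons.

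Within each genotype, phosphate deficiency still raised most of the starvation genes. The number called higher was 5 of 8 in phr1 (beside 7% of all tested genes), 6 in phl1 (7.5%), 6 in phl2 (21.6%), 6 in phl3 (21.9%), 6 in phl4 (5.98%), 5 in phr1phl1 (10.8%), 5 in phr1phl2 (17.5%), 5 in phr1phl3 (16.7%), 6 in phr1phl4 (6.02%), 5 in the triple (11.2%) and 5 in the quadruple mutant (16.7%). In phl2 and phl3 every -Pi library was of class 2 and every +Pi library of class 3. In phr1phl3 every -Pi library was of class 2 and every +Pi library of class 1. The quadruple mutant had -Pi libraries of classes 1 and 2 and +Pi libraries of class 3 only. Medium and class thus cannot be told apart within phl2, phl3, phr1phl3 and the quadruple mutant. MGD2, MGD3, SQD1, SQD2 and UGP3 were called in all 11 mutants. DGD2 was called in the 4 single phl mutants (1.496 to 1.90) and in none of the 7 genotypes carrying phr1 (0.33 to 0.97), although its adjusted p with limma was under 0.05 in all 7. In phr1 DGD2 came to 1.02 and was called with a pseudocount of 0.1, as it did at 1.03 without phr1 +Pi replicate 2. DGD1 was called only in phr1phl4 among the mutants (1.12 ± 0.15, adjusted p = 1.83e-08 with limma), where it read 18.0, 17.7 and 14.9 RPKM under -Pi and 6.54, 7.50 and 7.67 under +Pi. Green tissue markers in phr1phl4 summed to 1011 to 1190 RPKM under -Pi and 294 to 381 under +Pi. Their part in this call was not tested. MGD1 was called in no mutant, at 0.00 to 0.57.

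The responses that remained without PHR1 were of very different size. MGD3 was 36.4-fold higher under -Pi in phr1, with 32.2, 31.1 and 30.8 RPKM under -Pi and 0.532, 1.11 and 0.941 under +Pi. In phr1phl1 it was 4.84-fold higher, with 3.84, 4.41 and 4.59 RPKM under -Pi and 0.829, 0.838 and 0.987 under +Pi. In phr1phl1, MGD3 responded by 1.48 ± 0.12, SQD2 by 1.24 ± 0.12, UGP3 by 1.19 ± 0.15 and MGD2 by 1.04 ± 0.12, and the median of all tested genes stood at 0.22 there. After rescaling of the libraries, which took out that shift, MGD2 was at 0.82, SQD2 at 0.98 and UGP3 at 0.94 in phr1phl1, so that only 2 of 8 genes were called. MGD2 also lost its call there without phr1phl1 -Pi replicate 1 (0.998), +Pi replicate 1 (0.97) or +Pi replicate 3 (0.93). UGP3 lost its call on rescaling in the triple (0.98) and quadruple mutant (0.87).

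**Figure D4:**
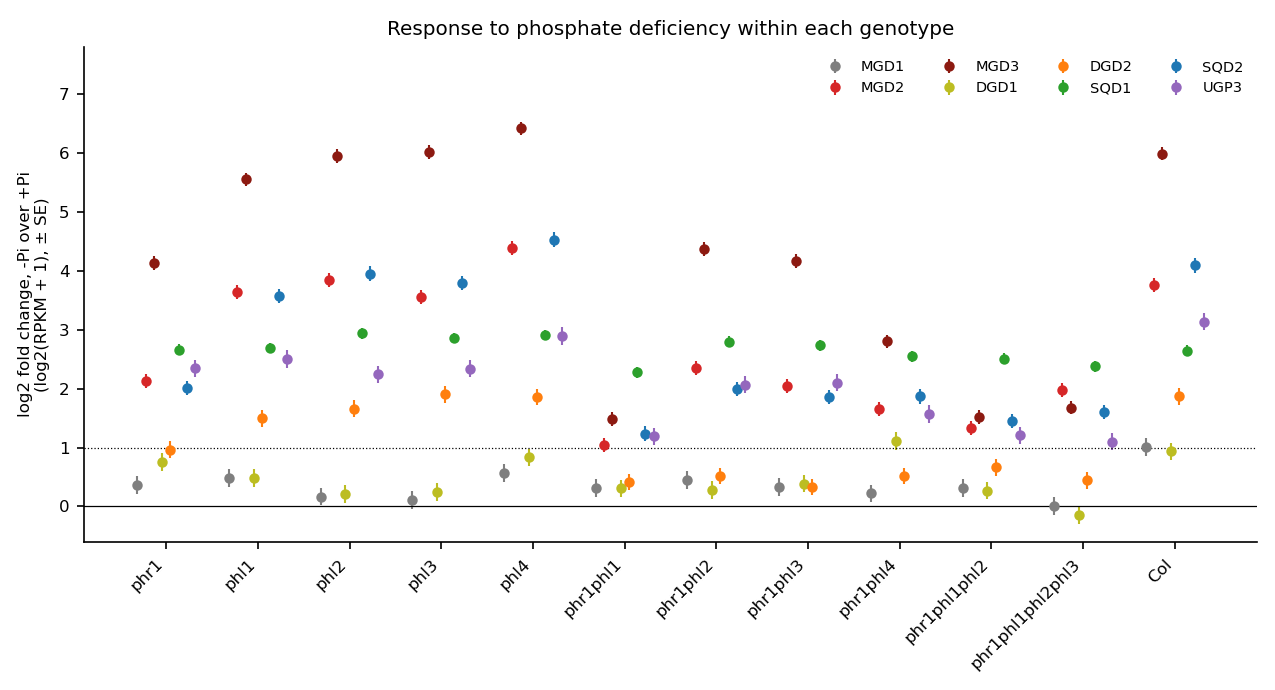
Log2 fold change of -Pi over +Pi (log2(RPKM + 1), ± SE) of the 8 genes within each of the 11 mutants and Col. MGD3, MGD2 and SQD2 sit lower in every genotype carrying phr1 than in Col, and SQD1 stays between 2.28 and 2.94 in all 12 genotypes.

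The differences between the response of each mutant and that of Col were tested as interactions. In phr1, 3 of 8 genes responded less than in Col, beside 1.36% of all tested genes called lower, namely SQD2 (-2.08 ± 0.17), MGD3 (-1.86 ± 0.16) and MGD2 (-1.64 ± 0.17). In phr1phl1, 5 of 8 did (4.26% of all genes), with MGD3 at -4.50 ± 0.16, SQD2 at -2.86 ± 0.17, MGD2 at -2.73 ± 0.17, UGP3 at -1.95 ± 0.21 and DGD2 at -1.46 ± 0.20. The same 5 genes were called in phr1phl2 (7.13% of all genes), phr1phl3 (12.2%), phr1phl4 (5.39%) and the triple mutant (3.53%). In the quadruple mutant MGD1 (-1.01 ± 0.22) and DGD1 (-1.08 ± 0.21) were called as well, which made 7 of 8 beside 7.88% of all genes. Both of these lost the call with library class as a term (-0.74 and -0.69) and without Col +Pi replicate 1 (-0.92 and -0.92) or quadruple -Pi replicate 2 (-0.94 and -0.997), and MGD1 also without Col -Pi replicate 2 (-0.96) or quadruple +Pi replicate 2 (-0.95). UGP3 lost its call with the class term in phr1phl2 (-0.64) and phr1phl3 (-0.57), and without Col +Pi replicate 1 in both (-0.93 and -0.90). In class 1 libraries alone, DGD2 (-0.80) and UGP3 (-0.92) lost theirs in phr1phl2, which left 3 of 8 and rests on 1 phr1phl2 library per medium assumed to vary like the other groups. In the 4 single phl mutants limma called 0 of 8, with 5 genes in phl1, 4 in phl2, 3 in phl3 and 5 in phl4 at an unadjusted p under 0.05. The share of all tested genes called in either direction was 8.76% in phl1, 35.1% in phl2, 32.7% in phl3 and 9.97% in phl4. It follows the stricter rule for a call, and the share at an unadjusted p under 0.05 was not worked out. The values of phl2, phl3, phr1phl3 and the quadruple mutant lie between library classes as said of their responses. After rescaling, UGP3 in phl2 (-1.01) and MGD1 in phl3 (-1.10) were called lower.

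SQD1 differed from its partners in the sulfolipid branch. Its response was 2.66 ± 0.09 in phr1, 2.28 ± 0.09 in phr1phl1 and 2.65 ± 0.09 in Col, so that phr1phl1 kept 86.0% of the Col response on the log2 scale, while SQD2 kept 30.2% and UGP3 37.8%. Over the 11 mutants the difference of the SQD1 response from Col ran from -0.37 in phr1phl1 (adjusted p = 0.0216 with limma) to 0.29 in phl2 (adjusted p = 0.0491 with limma), and none was called. In phr1 the difference was 0.02 ± 0.13. SQD1 read 76.7, 69.7 and 72.8 RPKM in phr1 -Pi libraries, 56.0, 51.0 and 52.0 in phr1phl1 -Pi libraries and 116, 113 and 122 in Col -Pi libraries. Its level was thus lower with phr1 on both media, whereas SQD2 and UGP3 were lower under -Pi.

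Adding phl1 to phr1 under -Pi lowered MGD3 alone among the 8 genes by the size for a call, beside 4.35% of all tested genes called lower. MGD3 read 3.84, 4.41 and 4.59 RPKM in phr1phl1 and 32.2, 31.1 and 30.8 in phr1 (log2 -2.62 ± 0.12, adjusted p = 8.85e-26 with limma). UGP3 (-0.84), MGD2 (-0.79), SQD2 (-0.78), DGD2 (-0.59) and SQD1 (-0.46) were lower with adjusted p-values of at most 0.000915 with limma and without the size. DGD1 was lower too, at 13.1 ± 0.585 RPKM in phr1phl1 and 17.6 ± 0.687 in phr1 (SD, n = 3 each). In this step 7 of 8 genes had an adjusted p under 0.05 with limma. Adding phl4 to phr1 likewise gave 1 call, MGD3 again (4.83% of all genes called lower), at 14.2, 14.99 and 16.4 RPKM in phr1phl4 and 32.2, 31.1 and 30.8 in phr1 (log2 -1.001 ± 0.12, adjusted p = 3.37e-10 with limma). That value lies on the edge of the rule, and without phr1 -Pi replicate 1, phr1phl4 -Pi replicate 1 or phr1phl4 -Pi replicate 2 the count was 0, at -0.98, -0.95 and -0.99. UGP3 was at -0.83 in phr1phl4 against phr1 (adjusted p = 7.71e-06 with limma), and 4 of 8 genes had an adjusted p under 0.05 in this step. Green tissue markers summed to 102 to 146 RPKM in phr1phl1, 1011 to 1190 in phr1phl4 and 10.7 to 13.3 in phr1 under -Pi, and their part in both steps was not tested.

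Other steps gave no call with limma. The count at an unadjusted p under 0.05 was 5 for phr1phl2 against phr1 (6.86% of all genes called in either direction), 2 for phr1phl3 against phr1 (13.4%), 2 for the triple mutant against phr1phl1 (0.156%) and 1 for the quadruple against the triple mutant (0.637%). The shares in brackets follow the stricter rule for a call, and those at an unadjusted p under 0.05 were not worked out. All phr1phl3 libraries here were of class 2 and all phr1 libraries of class 1, so genotype and class cannot be told apart in that step. From the other side, removing PHR1 from phl1 lowered 5 of 8 genes (4.14% of all genes called lower), with MGD3 at -4.25 ± 0.12 in phr1phl1 against phl1. Removing PHR1 from phl4 lowered 6 of 8 (2.52%), SQD1 (-1.09 ± 0.09) among them, with MGD3 at -3.67 ± 0.12 in phr1phl4 against phl4. Under +Pi the 8 genes ran from -0.73 to 0.52 over the same 8 steps, and the lowest value was that of SQD1 in phr1phl4 against phl4 (adjusted p = 2.89e-08 with limma).

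The order of the -Pi means had overlapping neighbours for some genes and clear gaps for others. For MGD3 the order was phl4, phl2, phl3, Col, phl1, phr1phl2, phr1phl3, phr1, phr1phl4, the triple, the quadruple mutant and phr1phl1, and the pairs phl2 and phl3, phl3 and Col, phr1phl2 and phr1phl3, and triple and quadruple had overlapping libraries. For SQD2 it was phl4, Col, phl2, phl3, phl1, phr1phl2, phr1, phr1phl3, phr1phl4, triple, quadruple and phr1phl1, with overlap between Col and phl2, along phr1, phr1phl3 and phr1phl4, and along the last 3. MGD1 had overlapping libraries between all neighbours from Col (22.0 ± 1.62 RPKM) to phr1phl3 (14.8 ± 0.968).

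Of 16 listed genes of phospholipid breakdown, 15 were tested in Col, and 8 were called higher and 0 lower, where 6.24% of all tested genes were called higher. The median log2 fold change of the 15 was 1.02, and those not called ran from -0.50 for GDPD4 to 0.70 for PAH2. The phospholipase C gene NPC4 stood at 211 ± 4.27 RPKM under -Pi and 5.48 ± 1.15 under +Pi in Col (log2 5.04 ± 0.17). The phospholipase D gene PLDP2 stood at 54.4 ± 1.45 RPKM under -Pi and 1.72 ± 0.356 under +Pi (log2 4.36 ± 0.16), and GDPD1, a glycerophosphodiester phosphodiesterase gene, at 537 ± 18.8 under -Pi and 43.5 ± 10.9 under +Pi (log2 3.63 ± 0.12). Against Col under -Pi, 5 of the 15 were called lower in phr1 (0.783% of all genes) and 6 in phr1phl1 (4.51%), with NPC4 at -1.998 ± 0.17 in phr1 and -4.84 ± 0.17 in phr1phl1. GDPD1 was at -0.47 in phr1, without a call, and at -1.87 ± 0.12 in phr1phl1. The members of this list were chosen with earlier results of these data known, so the counts describe them and support no direction.

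The other lipid lists had fewer calls in Col in number. Of 9 genes of plastid lipid import and assembly, 0 were called in Col by limma, with 1 at an unadjusted p under 0.05 and a median of 0.00. Of 7 tested genes of phospholipid synthesis, 0 were called, with 4 at an unadjusted p under 0.05 and a median of 0.47. The desaturase gene FAD3 was the only one called of 6 desaturases, at 251 ± 8.38 RPKM under -Pi and 107 ± 18.3 under +Pi in Col (log2 1.23 ± 0.14). In this comparison 1323 of the 21206 tested genes were called higher. Of 6 tested UDP-sugar genes, 2 were called lower in Col, where 8.2% of all genes were, and 1 was called higher. These were the UDP-glucose epimerase genes UGE3 (0.914 ± 0.250 RPKM under -Pi and 10.6 ± 0.616 under +Pi, log2 -2.60 ± 0.23) and UGE1 (-1.64 ± 0.14), and the cytosolic pyrophosphorylase gene UGP1 (1.01 ± 0.14). In phr1phl1 against Col under -Pi these genes stood the other way, with UGE3 at 3.11 ± 0.23 and UGE1 at 1.30 ± 0.14 called higher (7% of all genes were) and UGP1 at -1.03 ± 0.14 called lower. NPC5, UGE5, NMT1 and AT1G73600 did not pass the filter, and UGE5 and NMT1 were listed at 0 in the Col libraries.

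Genes of like pattern were sought by Pearson r of mean log2(RPKM + 1) over the 24 groups. All genes were read in the same libraries, which differed in depth and class, and the part of this in r was not tested. The closest to MGD3 were AT1G49900 (r = 0.993), the phosphoethanolamine and phosphocholine phosphatase gene PEPC1 (r = 0.993) and the sucrose phosphate synthase gene ATSPS4F (r = 0.992). The closest to MGD2 were AT1G49900 (r = 0.994), PEPC1 (r = 0.982) and the SPX domain gene SPX3 (r = 0.982), and those to SQD2 were AT1G49900 (r = 0.987), ATSPS4F (r = 0.987) and AT4G13000 (r = 0.984). SPX3 was also the closest to UGP3 (r = 0.988). The closest to SQD1 was GDPD1 (r = 0.993), named SRG3 in the annotation. DGD2 was closest to AT1G67610 (r = 0.975), MGD1 to AT4G19500 (r = 0.903) and DGD1 to ATMRK1 (r = 0.901). Among the 8 genes themselves, MGD2 and SQD2 had the highest r (0.992) and MGD1 and MGD3 the lowest (0.726).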

How the data were processed

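Root libraries were compared as RPKM values per gene, which the authors deposited in 1 table of 72 columns, each matched to a library by its name. The tools named are TopHat and edgeR, with TAIR10 as the genome build, per the submitters' processing notes. Versions, counting rule and strand setting are not given in the sources used here. Column sums ran from 559809 to 742047. Depth was estimated from the steps between low values of 10523 genes with 1 exon, where a median of 36.2% of values lay within 0.05 of a whole read, too few to recover counts.

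Values were tested as log2(RPKM + 1) with limma 3.58.1 (R 4.3.3) in 1 fit of all 24 groups, over 21206 genes that reached 1 RPKM in 3 or more libraries, with Benjamini-Hochberg adjustment over all of them. A call needed an adjusted p under 0.05 and a log2 fold change of 1 or more in size. The procedure was also run on simulated data with independent noise and without library classes, so that run does not cover class differences. The 61 comparisons were responses within genotypes, their differences from Col, mutants against Col, and steps between mutants. The 8 genes and the lipid lists were chosen with earlier results of these data known. From each list the text names up to 3 called genes with the largest change in Col, and as genes of like pattern the 3 with the highest Pearson r for MGD2, MGD3 and SQD2 and 1 for each other gene. Library classes came from k-means with 50 starts over 9190 stable genes (mean silhouette 0.572). Alternatives were a pseudocount of 0.1, no filter, rescaling by median ratios, the compared groups alone, a replicate block, a class term, class 1 libraries alone, and each library left out.

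Same-numbered libraries deviated together (every r over 0.1) in 2 of 50 pairs of groups, so replicate numbers did not pair them. Of the table's IDs, 32835 matched the reference. Sequences and positions come from RefSeq's TAIR10.1, while the files use TAIR10. Python 3.11.15, numpy 2.4.6, pandas 2.3.3 and matplotlib 3.10.9 were used besides.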

Additional observations from a re-analysis of the deposited data

Results flagged for a closer look

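In 35 of 88 tested differences the response of a gene to phosphate deficiency in a mutant was called smaller than in Col by limma's interaction test, and in 0 it was called larger. All values are log2 differences, mutant response minus Col response. In phr1 they were -1.64 for MGD2, -1.86 for MGD3 and -2.08 for SQD2. For phr1phl1 the values were -2.73 for MGD2, -4.50 for MGD3, -1.46 for DGD2, -2.86 for SQD2 and -1.95 for UGP3. phr1phl2 had -1.41 for MGD2, -1.62 for MGD3, -1.36 for DGD2, -2.10 for SQD2 and -1.07 for UGP3. In phr1phl3 they were -1.72 for MGD2, -1.82 for MGD3, -1.54 for DGD2, -2.24 for SQD2 and -1.04 for UGP3. For phr1phl4 the values were -2.11 for MGD2, -3.19 for MGD3, -1.35 for DGD2, -2.22 for SQD2 and -1.57 for UGP3. The triple mutant had -2.43 for MGD2, -4.47 for MGD3, -1.21 for DGD2, -2.65 for SQD2 and -1.93 for UGP3. In the quadruple mutant they were -1.01 for MGD1, -1.79 for MGD2, -4.31 for MGD3, -1.08 for DGD1, -1.43 for DGD2, -2.49 for SQD2 and -2.04 for UGP3. The 35 values share the Col libraries, and the 7 genotypes all carry phr1.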

How the results depend on the processing

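No called value changed direction under any alternative run. Of 1001 called values recomputed under alternatives other than leaving out a library, 984 remained called, and of 2250 values not called 6 became called, while 103 of these differed in sign. With 1 library left out, 1094 of 1110 called values remained called, and 2 of 2346 not called became called. After rescaling, the count of genes called for the response was 2 in phr1phl1 (5 without it), and for the difference from Col it was 1 in phl2 and 1 in phl3 (0 without it). Rescaling factors ran from 0.837 to 1.14 and moved the median of all genes by over 0.1 in 20 of 61 comparisons, by at most 0.21. In class 1 libraries alone, the difference between phr1phl2 and Col was called for 3 genes against 5, and DGD2 in phr1phl2 responded by 1.01, a call, both resting on 1 phr1phl2 library per medium assumed to vary like the other groups. The count for phr1phl4 against phr1 under -Pi ran from 0 to 1 over the libraries left out. The causes of these changes were not tested. The replicate block changed no call, keeping 150 of 150 called and 338 of 338 values not called on their side, and neither did dropping the filter (29088 genes) or fitting the compared groups alone, which gave no value for 5 contrasts of MGD3 that failed the filter there. Groups without class 1 libraries gave no value in that alternative. With 3 libraries a group, the calls nearest the threshold changed with 1 library left out, as given above. RPKM keeps no counts, so counting error per value is unknown.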
